A study of Mus musculus with 6 samples.

Results

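The genes of the proteasome were followed in messenger RNA of pro-B cells, the bone marrow B lineage precursors that rearrange the immunoglobulin heavy chain gene. Members were all genes whose symbol begins with Psm, a letter from a to g and a digit, apart from symbols carrying the pseudogene mark "-ps". The rule found 50 of the 54752 gene identifiers in the tables and left out 4 pseudogene symbols. One member, Psmc3ip, is no proteasome subunit: it encodes a partner of the meiotic recombinases, named for its binding to Psmc3. The other 49 are subunits, assembly chaperones, activators and an inhibitor of the proteasome.

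Pro-B cells were sorted by flow cytometry from adult C57BL/6 mice. The deleted group was 3 mice with floxed Skiv2l alleles and Cd79a-Cre (genotype Skiv2lfl/fl-Cd79a-Cre), and the control group was 3 mice with floxed alleles alone (Skiv2lfl/fl), 1 library per mouse. Both groups carried the floxed alleles, and the labels name Cre in the deleted mice only, so an effect of Cre cannot be told apart from one of the deletion. The product of Skiv2l is the helicase of the SKI complex, a device that hands messenger RNA to the cytosolic exosome. Cd79a, which names the Cre driver, is expressed in the B lineage from its early stages. Floxed exons, sort markers and sex were not given in the sources used here.

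Proteins tagged with ubiquitin are degraded by the proteasome. Its 20S core is a barrel of alpha and beta rings with 3 kinds of proteolytic site, made by Psmb5, Psmb6 and Psmb7. Lymphoid cells also build an immunoproteasome, in which Psmb8, Psmb9 and Psmb10 take the places of Psmb5, Psmb6 and Psmb7, and which favours peptides that fit MHC class I. Interferon raises these genes together with Psme1 and Psme2, which form the PA28 activator. The 19S cap recognises and unfolds substrates, and the transcription factor NRF1 (Nfe2l1) raises subunit genes when proteasome activity is short.

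Values are FPKM, read fragments scaled to transcript length and to the size of the library, as deposited, and are given in the order of libraries 1, 2 and 3. Fold changes are log2 of FPKM + 1, Skiv2l-deleted minus control, from limma fitted over all 13539 genes that reached 1 FPKM in at least 3 of the 6 libraries. A gene was called when its Benjamini-Hochberg adjusted p over all these genes was below 0.05. The tables hold mean read depth per gene but no read counts. The number of reads behind a value is therefore not given, and no counting interval can be given. In RNA from a sorted population, fewer cells of a type and less RNA per cell cannot be told apart.

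In the check of the deletion, Skiv2l had values of 25.4, 20.2 and 46.3 FPKM in controls against 9.53, 16.1 and 10.9 in deleted libraries, groups that did not overlap (limma adjusted p = 0.063). Control 3 and Skiv2l-deleted 2 had the highest myeloid marker sum of their group. The 12 myeloid marker genes summed to 135, 488 and 1481 FPKM in the controls and to 394, 2666 and 85.4 in the deleted libraries. The early granulocyte gene Mpo reached 343 and 641 in those 2 libraries against 4.30 to 8.99 elsewhere. The myeloid markers S100a9 and Ngp did not follow that pattern. S100a9 was at 217 FPKM in control 2 and 165 in Skiv2l-deleted 1, against 177 and 243 in control 3 and Skiv2l-deleted 2. Ngp was at 58.3 and 49.6 FPKM in the former pair and 25.2 and 29.7 in the latter. Both genes were at 1.983 FPKM or less in control 1 and Skiv2l-deleted 3. Leaving out control 3 and Skiv2l-deleted 2 therefore does not remove all myeloid RNA. C1qa was at 0 to 0.2001 FPKM throughout. Erythroid markers summed to 40.3 to 42.0 FPKM in controls and to 57.7, 262 and 56.1 in deleted libraries, groups that did not overlap. T and NK markers summed to 5.25 to 18.3 FPKM in controls and 13.8 to 44.3 in deleted libraries, and Cd3e was at 0 in all but Skiv2l-deleted 2 (0.106). Mature B markers summed to 357 to 435 FPKM in controls and 147 to 202 in deleted libraries, plasma cell markers to 504 to 809 and 397 to 420, and the 13 pro-B markers to 3023 to 4231 and 4690 to 5833. The dendritic cell markers summed to 3.25 to 4.92 and 5.10 to 18.1. Within that sum Flt3 stood at 1.67, 2.25 and 3.42 FPKM in controls and 9.94, 9.10 and 4.57 in deleted libraries. Siglech was at 0.736 to 1.04 FPKM in controls and at 0.137, 6.09 and 0.316 in deleted libraries, above the controls in Skiv2l-deleted 2 only. By limma, 4.97% of all genes tested were higher and 3.87% lower. Of 7 tested mature B markers 6 were lower, and of 13 pro-B markers 7 were higher and 1 lower. The lower 1 was Cd79a, which names the Cre driver, at 726, 640 and 739 FPKM in controls and 367, 368 and 441 in deleted libraries (limma adjusted p = 0.0123). The part of the Cre allele in that was not tested. Higher were also Car2 (1 of 5 tested erythroid markers), Klrb1c (1 of 2, T and NK) and Flt3 (1 of 1, dendritic). Among plasma cell markers 3 of 5 tested were lower and 1, Mzb1, was higher. Igha, the constant gene of IgA, was at 216, 164 and 380 FPKM in controls and at 0.302, 0 and 0.0845 in deleted libraries. The part of these cells in the differences below was not tested; values without control 3 and Skiv2l-deleted 2 are given where a call changes.

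Psme4 was the one proteasome gene called in the fit of all 6 libraries, and it fell. Its product, PA200, is a large nuclear activator that caps the 20S core without the 19S particle and is known for its part in DNA repair and in histone turnover during sperm formation. No other gene of the core, the cap, the activators or the chaperones passed the test. Among the 48 members tested, 0 were called higher and 1 lower, 2.08% in all, where 8.84% of all genes tested were called, 4.97% higher and 3.87% lower. At an unadjusted p below 0.05 there were 6 members, and 3463 of the 13539 genes. The median log2 fold change of the members was 0.06, the same as that of all genes (0.06), with 31 members above 0 and 17 below. With libraries rescaled by the median of ratios, both medians were at 0.00. A difference beyond 0.5 on the log2 scale was found in 1 of the 48, against 18.6% of all genes. The groups did not overlap in 8 members (Psme4, Psma7, Psmc1, Psmc4, Psme1, Psmf1, Psmg4 and Psmc3ip), or 16.7%, against 32.2% of all genes. The median standard error was 0.13 for the members and 0.16 for all genes.

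A pair of members was too low to be tested, and both are known from other tissues. Psma8, an alpha subunit of the testis, stood at 0.267, 0.507 and 0.300 FPKM in controls and 0.734, 0.649 and 0.575 in deleted libraries. Psmb11, the catalytic subunit of thymic epithelium, was at 0.0278 FPKM or less in all 6 libraries.

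**Figure D1:**
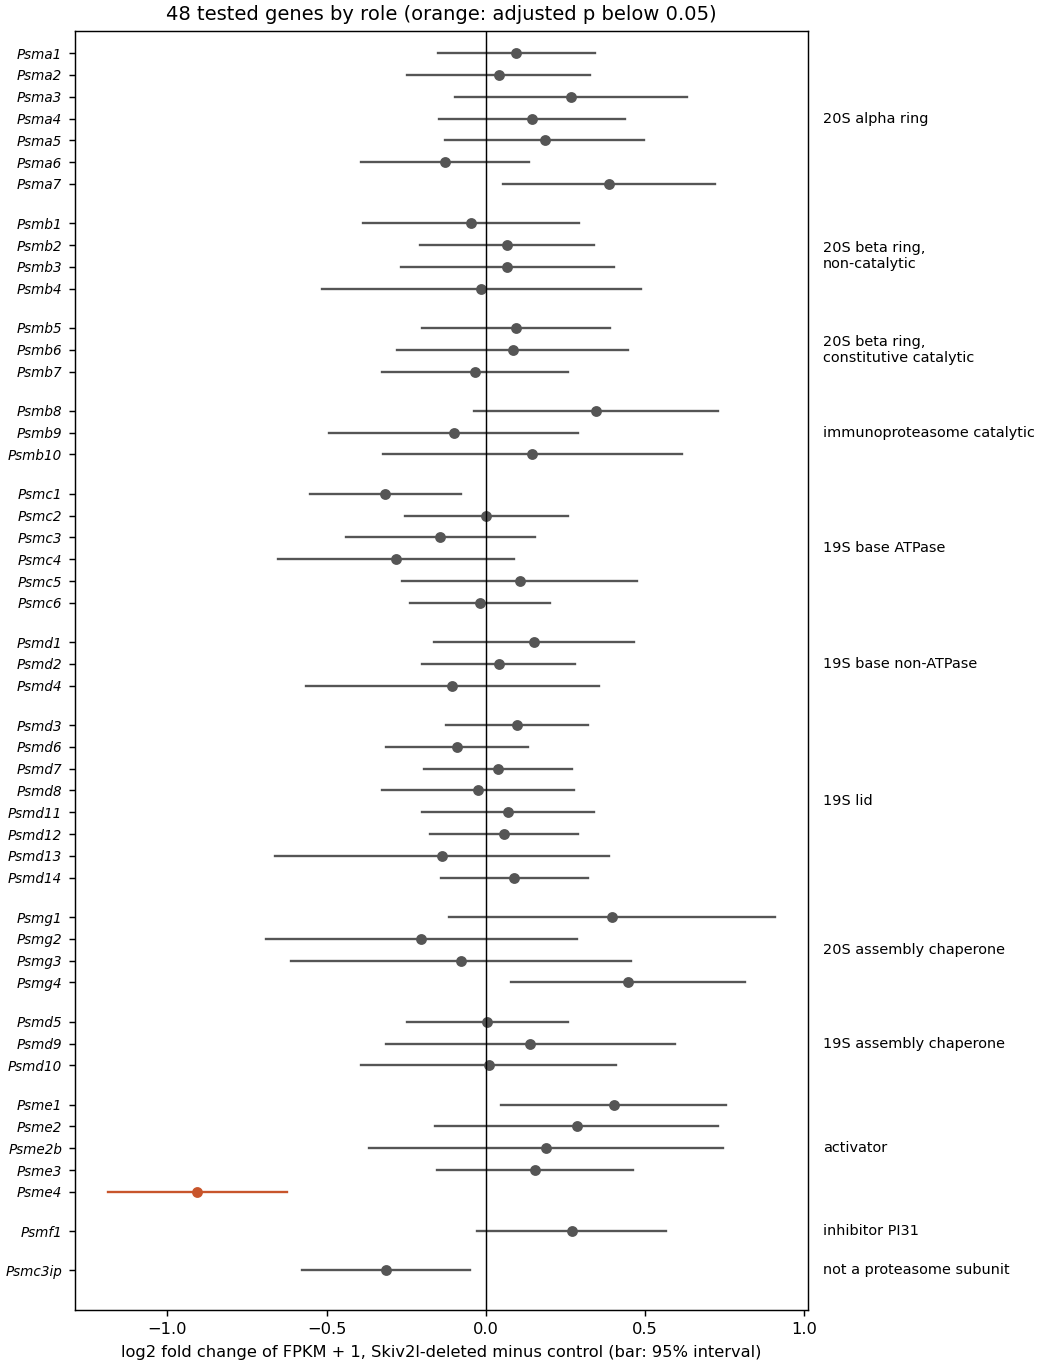
Log2 fold change of FPKM + 1 (x axis, Skiv2l-deleted minus control) of the 48 tested genes by role, with 95% intervals from limma (n = 3 libraries per group). Psme4, in orange, is the only gene with an adjusted p below 0.05, at −0.91, and the intervals of 5 of the other 47 genes leave out 0.

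Promoters of the members were searched for the cores of 2 elements whose factors are known to act on proteasome or immunoproteasome genes. A match describes the letters only and shows no binding. RefSeq promoters (GRCm38.p6, 250 bases before to 50 after the start) were at hand for 42 of the 50 members, and not for Psma8, Psmb1, Psmb2, Psmb7, Psmc3, Psmd3, Psmd7 and Psmg2. The antioxidant response element core, TGACNNNGC on either strand, which NRF1 and NRF2 bind, was found in 6 of 42 (14.3%), against 14.0% of 27025 genes. Those were Psmb5, Psmb6, Psmc6, Psmd9, Psmd12 and Psme4. The interferon-stimulated core, TTTC, any pair of bases and TTTC, on either strand, was found in 5 of 42 (11.9%), against 3.99% of all genes: Psmb3, Psmd4, Psmd9, Psme1 and Psmg4. The sites of the called gene, of 2 constitutive catalytic subunits and of 3 genes with the interferon core follow, on the strand of the gene, with the match in capitals.
Psme4, chr11:30771758-30771787, + strand: cgctgcggctGCAGCGTCAccagaagagcc
Psmb5, chr14:54618023-54618052, − strand: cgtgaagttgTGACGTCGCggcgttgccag
Psmb6, chr11:70525338-70525367, + strand: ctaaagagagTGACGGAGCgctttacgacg
Psme1, chr14:55578493-55578522, + strand: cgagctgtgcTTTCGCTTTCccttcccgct
Psmg4, chr13:34162969-34162998, + strand: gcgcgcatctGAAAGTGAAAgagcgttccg
Psmb3, chr11:97703261-97703290, + strand: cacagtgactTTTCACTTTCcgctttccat
The match of Psme4 lies from base −7 to base 2 of the RefSeq start and reads on the opposite strand. The deposited coordinates begin the gene further upstream, at 30771726, and the 30 bases lie in annotated exon. The other 5 holders of the antioxidant core had log2 fold changes of −0.02 to 0.14. The interferon core stood in Psme1 and Psmg4 at 0.40 and 0.45 and in Psmb3, Psmd9 and Psmd4 at 0.07, 0.14 and −0.10. In Psme1 and Psmg4 that match lay after the start, at bases 10 to 19 and 16 to 25, in annotated exon. In Psmb3, Psmd9 and Psmd4 it lay upstream of the start. The windows of Psmb8, Psmb9 and Psmb10 held neither core. The SP1 box GGGCGG was found in 54.8% of the members and 38.2% of all genes, and the CCAAT box in 35.7% and 41.1%.

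Psme4 lies on chromosome 11 from 30771726 to 30880361 (GRCm38, + strand). Controls had 36.8, 38.9 and 30.9 FPKM of it, and deleted libraries 18.9, 17.9 and 18.5 FPKM. Every deleted library lay below every control, and the 3 deleted libraries differed from each other by less than the controls did. The mean was 35.5 ± 4.12 FPKM in controls and 18.4 ± 0.492 in deleted libraries (SD, n = 3), a ratio of 0.518. The log2 fold change was −0.91 ± 0.12 (SE), with a 95% interval of −1.19 to −0.63 (limma adjusted p = 0.00929). Leaving out 1 library at a time kept the fall between −1.0 and −0.84. The call held in 4 of the 6 omissions and was lost without Skiv2l-deleted 1 (limma adjusted p = 0.0531) and without Skiv2l-deleted 3 (0.0549). Without control 3 and Skiv2l-deleted 2 together the log2 fold change was −0.98 (limma adjusted p = 0.0107). Psme4 is the member with the longest annotated exon sequence, 8382 bases in all. The opposite-strand gene Gm12103 lies within it, and was at 0.110 FPKM in control 1 and at 0 in the other 5 libraries.

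The other activators were on the other side of 0. Psme1, the alpha subunit of PA28, stood at 127.6, 130.5 and 178.9 FPKM in controls and 181.7, 201.7 and 188.7 in deleted libraries. All deleted libraries were above all controls, by a narrow margin over control 3. Its log2 fold change was 0.40 ± 0.15 (95% interval 0.05 to 0.76, limma adjusted p = 0.151). Without control 3 it was 0.56 (limma adjusted p = 0.0180), and without control 3 and Skiv2l-deleted 2 it was 0.52 (0.0220). Psme2, its beta partner, lies 5.9 kb away on chromosome 14 on the opposite strand. It stood at 113.8, 105.2 and 160.0 FPKM in controls and 131.3, 177.0 and 150.3 in deleted libraries, which overlapped (0.29 ± 0.19, limma adjusted p = 0.401). Leaving out control 3 gave 0.47 (limma adjusted p = 0.0808), leaving out control 2 gave 0.17 (0.667) and leaving out Skiv2l-deleted 2 gave 0.18 (0.676). Psme3, the nuclear PA28 gamma, stood at 82.4 ± 6.59 and 92.2 ± 12.2 FPKM (SD, n = 3). Psme2b, a near copy of Psme2 whose reads may be split between both, stood at 9.58 ± 2.91 and 11.0 ± 2.58 FPKM.

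The catalytic subunits of both kinds were abundant in control pro-B cells. On the FPKM scale, which is per length, the control means ran in the order Psmb6 (165 ± 33.2), Psmb7 (111 ± 15.6), Psmb8 (107 ± 24.7), Psmb9 (91.6 ± 20.6), Psmb5 (79.1 ± 10.9) and Psmb10 (72.5 ± 19.6; SD, n = 3). Psmb6 lay above the rest in every control, while each later pair of neighbours overlapped between libraries. The immunoproteasome genes made up 44.2%, 40.2% and 44.9% of the FPKM of these 6 genes in the controls and 44.5%, 44.8% and 45.3% in the deleted libraries. In deleted cells the order was Psmb6 (173 ± 11.1), Psmb8 (134 ± 2.60), Psmb7 (108 ± 4.43), Psmb5 (84.1 ± 4.15), Psmb9 (84.0 ± 2.87) and Psmb10 (79.1 ± 10.4), and Psmb8 lay above Psmb7 in all 3 libraries.

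None of the 3 immunoproteasome genes passed the test, either adjusted or at an unadjusted p below 0.05 in limma. Psmb8 (beta5i, chymotrypsin-like site; chromosome 17, 34197721 to 34201454) stood at 95.6, 90.1 and 135.4 FPKM in controls and 131.1, 135.9 and 135.4 in deleted libraries. The deleted libraries were nearly level, controls 1 and 2 were lower, and control 3 was within the deleted range. The log2 fold change was 0.35 ± 0.16 (95% interval −0.04 to 0.73, limma adjusted p = 0.239). Control 3 decided that call: without it the value was 0.53 (limma adjusted p = 0.0173), and without control 3 and Skiv2l-deleted 2 it was 0.52 ± 0.08 (0.0244). The omissions of the other libraries left it uncalled, with an adjusted p of up to 0.462 without control 1.

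Psmb9 (beta1i, caspase-like position; chromosome 17, 34181988 to 34187764) stood at 89.2, 72.4 and 113.3 FPKM in controls and 81.5, 83.3 and 87.1 in deleted libraries. The deleted libraries all lay inside the control range. Its log2 fold change was −0.10 ± 0.17 (95% interval −0.49 to 0.29, limma adjusted p = 0.765). The value turned to 0.06 when control 3 was left out, and to 0.07 when Skiv2l-deleted 2 was left out as well. Psmb10 (beta2i, trypsin-like site; chromosome 8, 105935735 to 105938444) stood at 62.8, 59.8 and 95.05 FPKM in controls and 67.6, 87.6 and 82.2 in deleted libraries. The groups overlapped through control 3 alone (0.15 ± 0.20, 95% interval −0.32 to 0.62, limma adjusted p = 0.708). The omission of 1 library moved it between 0.03, without control 2, and 0.36, without control 3 (limma adjusted p = 0.955 and 0.125). It was 0.06 without control 1, 0.25 without Skiv2l-deleted 1 and 0.07 without Skiv2l-deleted 2, and 0.28 without control 3 and Skiv2l-deleted 2. Psmb9 and Psmb8 are neighbours in the MHC region. Psmb9 overlaps the 5′ end of Tap1 on the opposite strand, and Psmb8 overlaps Gm20496, which stood at 10.4 to 15.3 FPKM. Reads in the shared stretches are uncertain, since the use of strand in counting was not given in the sources used here.

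Constitutive counterparts stayed within the spread of all 3 controls, with control 3 at its top. Psmb5 stood at 68.7, 78.1 and 90.5 FPKM in controls and 86.0, 87.1 and 79.4 in deleted libraries (0.10 ± 0.13, limma adjusted p = 0.696). Psmb6 stood at 143.8, 148.2 and 203.4 against 160.6, 181.2 and 178.2 FPKM (0.09 ± 0.15, limma adjusted p = 0.789). Psmb7 stood at 99.4, 104.5 and 128.7 against 102.5, 109.9 and 110.5 FPKM (−0.03 ± 0.12, limma adjusted p = 0.905). In all 3 genes control 3 was the highest library, and every deleted library lay between the lowest and highest control. In Psmb5 and Psmb6 every deleted library lay above controls 1 and 2. Without control 3 the log2 fold changes of Psmb5, Psmb6 and Psmb7 were 0.20, 0.24 and 0.08 (limma adjusted p = 0.239, 0.142 and 0.595). Without control 3 and Skiv2l-deleted 2 they were 0.17, 0.21 and 0.06. The 95% intervals ran from −0.33 at the lowest, for Psmb7, to 0.45 at the highest, for Psmb6.

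**Figure D2:**
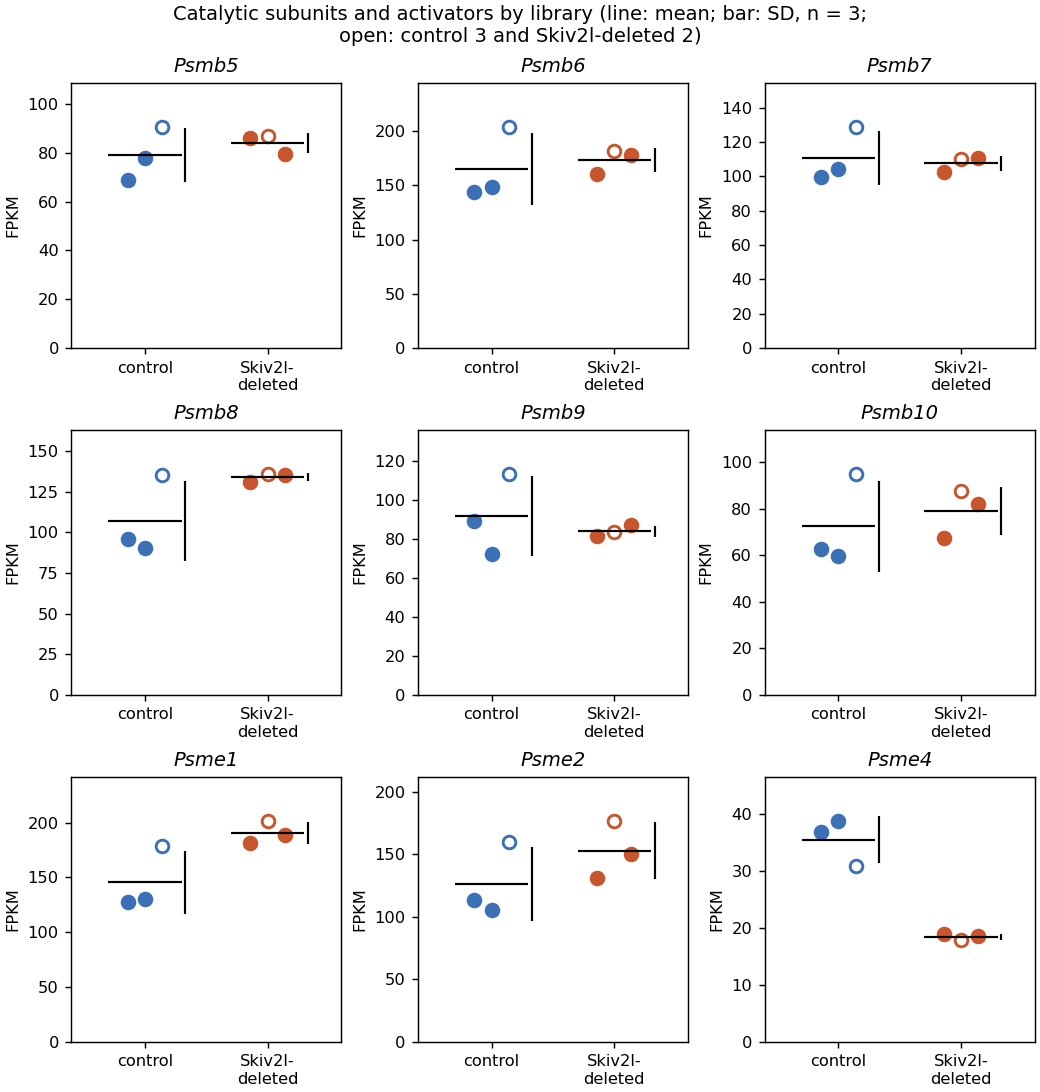
FPKM (y axis, from 0) of the constitutive catalytic genes, the immunoproteasome catalytic genes and 3 activators in each library, with group means and SD (n = 3). Open points are control 3 and Skiv2l-deleted 2; Psme4 is at 30.9 to 38.9 in controls and 17.9 to 18.9 in deleted libraries, while in the 6 catalytic genes control 3 is the highest control.

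A ratio within each library compares an immunoproteasome gene with the subunit it replaces, free of scaling between libraries. The FPKM of Psmb8 over that of Psmb5 was 1.39, 1.15 and 1.496 in controls and 1.53, 1.56 and 1.70 in deleted libraries, so the groups did not overlap. The difference in log2 ratio was 0.25 (exact two-sided permutation p = 0.1, the smallest that 3 against 3 allows, and 0.2 adjusted over the 3 pairs). Psmb9 over Psmb6 was 0.620, 0.489 and 0.557 in controls and 0.508, 0.460 and 0.489 in deleted libraries, a log2 difference of −0.19 with overlapping groups (exact permutation p = 0.2, adjusted 0.2). Psmb10 over Psmb7 was 0.632, 0.572 and 0.739 against 0.659, 0.797 and 0.744, a log2 difference of 0.18, again with overlap (exact permutation p = 0.2, adjusted 0.2). No pair passed, and 3 against 3 libraries cannot reach an exact p below 0.1.

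Psmb8 was also set against Psmb9, its neighbour and partner in the immunoproteasome. Psmb8 over Psmb9 was 1.07, 1.25 and 1.19 in controls and 1.61, 1.63 and 1.55 in deleted libraries. The groups did not overlap, and control 3 lay between the other controls. This ratio was chosen after its values were seen and is given with no test. Tap1, the transporter subunit next to Psmb9, stood at 1.12, 1.15 and 1.001 times the FPKM of Psmb9 in controls and at 1.13, 1.27 and 1.21 times in deleted libraries.

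**Figure D3:**
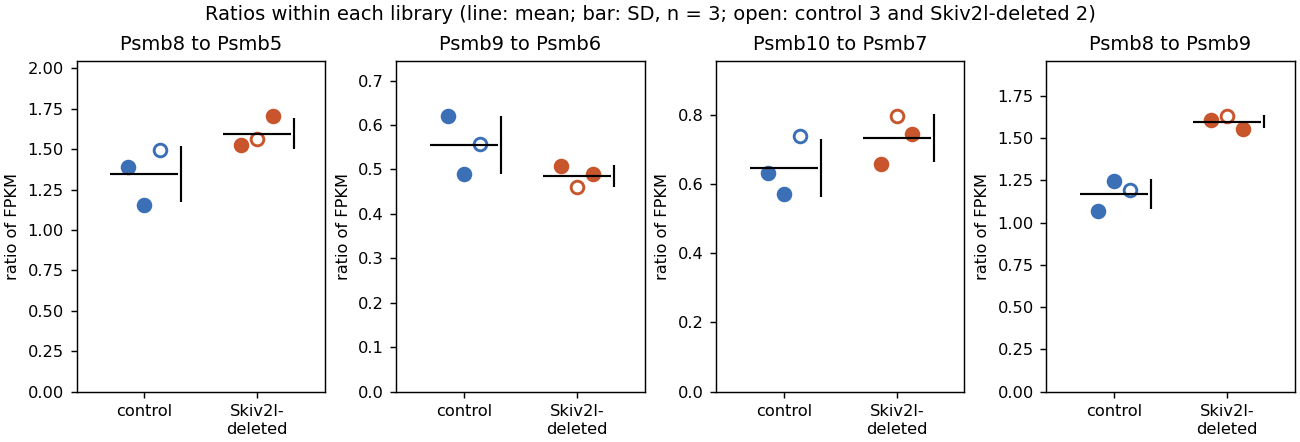
Ratio of FPKM of 2 genes within each library (y axis, from 0), with group means and SD (n = 3); open points are control 3 and Skiv2l-deleted 2. Psmb8 to Psmb5 runs from 1.15 to 1.496 in controls and 1.53 to 1.70 in deleted libraries, Psmb9 to Psmb6 and Psmb10 to Psmb7 overlap, and Psmb8 to Psmb9, chosen after its values were seen, runs from 1.07 to 1.25 and 1.55 to 1.63.

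In the rest of the 20S core the subunits were made at levels within a few fold of each other. The 14 constitutive alpha and beta genes ran from 54.1 FPKM for Psma2 to 173 for Psma6 in controls, a ratio of 3.19. Of these 14, 0 passed the limma test. An unadjusted p below 0.05 was found in 1 of them, and in 3463 of all 13539 genes tested. The median log2 fold change of the 14 was 0.08, with 10 above 0 and 4 below. All 95% intervals lay between −0.52 and 0.72. The 1 was Psma7, an alpha ring subunit, at 94.6, 104.4 and 115.4 FPKM in controls and 117.8, 158.8 and 137.7 in deleted libraries. Its groups did not overlap, by a gap smaller than the spread within either group (0.39 ± 0.14, limma adjusted p = 0.142). In the non-catalytic beta subunits Psmb1 to Psmb4 the log2 fold changes ran from −0.05 to 0.07. Psmb3, the largest of these, stood at 115.9, 115.5 and 154.8 FPKM in controls and 125.2, 142.5 and 133.7 in deleted libraries, with overlap.

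In the 19S cap, 0 of 17 subunit genes passed the limma test. An unadjusted p below 0.05 was found in 1 of them, and in 3463 of all 13539 genes tested. Control means ran from 43.9 FPKM for Psmd11 to 145 for Psmc3, a ratio of 3.30. The median log2 fold change was 0.00, with 9 above 0 and 8 below, and the 95% intervals lay between −0.66 and 0.48. The 6 ATPases of the base, which unfold the substrate, had a median of −0.08. Psmc1 led them at 107.5, 121.5 and 125.9 FPKM in controls and 95.1, 95.2 and 93.9 in deleted libraries. Each deleted library was below each control (−0.31 ± 0.10, 95% interval −0.55 to −0.08, limma adjusted p = 0.102). Psmc4, another ATPase, was also lower in each deleted library, at 113.9, 118.9 and 167.3 against 108.5, 109.2 and 105.9 FPKM (−0.28 ± 0.16, limma adjusted p = 0.322). Without control 3 and Skiv2l-deleted 2 the values were −0.27 for Psmc1 and −0.12 for Psmc4.

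The scaffold and ubiquitin receptor genes of the base were led by Psmd1, at 54.7, 56.3 and 43.8 FPKM in controls and 59.5, 51.5 and 60.6 in deleted libraries. Here control 3 was the lowest library and the groups overlapped (0.15 ± 0.13, limma adjusted p = 0.541). The 8 lid genes, which carry the deubiquitinase Psmd14, ran from −0.14 to 0.10. Psmd13 was the farthest from 0, at 65.8, 69.4 and 118.1 FPKM in controls against 71.9, 79.2 and 70.9 in deleted libraries. Control 3 alone set its sign: the log2 fold change was −0.14 ± 0.22 with it and 0.13 without it (limma adjusted p = 0.763 and 0.399).

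The assembly chaperones were expressed below the subunits they assemble, at control means from 12.5 FPKM for Psmd9 to 34.6 for Psmg2. Of 7 such genes 0 passed the test. Psmg4 alone had an unadjusted limma p below 0.05, as did 3463 of all 13539 genes tested. Psmg4, which pairs with Psmg3 to guide the alpha ring, stood at 26.0, 25.3 and 33.1 FPKM in controls and 34.3, 45.4 and 36.5 in deleted libraries. The groups did not overlap, by a narrow margin over control 3 (0.45 ± 0.16, 95% interval 0.08 to 0.82, limma adjusted p = 0.129). Without control 3 it was 0.57 (limma adjusted p = 0.0485), and without control 3 and Skiv2l-deleted 2 it was 0.45 (0.0395). Psmg3 itself stood at 20.3, 23.9 and 37.3 against 22.5, 28.8 and 23.8 FPKM, a log2 fold change of −0.08, and of 0.07 without control 3 and Skiv2l-deleted 2. Psmd9, a chaperone of the 19S base, stood at 10.9, 10.4 and 16.2 in controls and 11.6, 14.4 and 15.1 FPKM in deleted libraries (0.14 ± 0.19).

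Psmf1, which encodes the 20S-binding regulator PI31, stood at 11.3, 9.42 and 11.5 FPKM in controls and 12.7, 12.6 and 14.1 in deleted libraries. The groups did not overlap (0.27 ± 0.13, limma adjusted p = 0.235). Psmc3ip, outside the proteasome, stood at 23.2, 22.6 and 22.9 in controls and 16.7, 20.3 and 17.9 FPKM in deleted libraries (−0.31 ± 0.11, limma adjusted p = 0.135).

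Control 3 carried more proteasome RNA than the other controls. It lay above the mean of controls 1 and 2 in 41 of the 48 genes, by a median of 0.33 on the log2 scale, while over all genes the median was 0.04. The shift ran from −0.34 in Psmd1 to 0.80 in Psmd13. Skiv2l-deleted 2, with the higher myeloid marker sum, lay above the mean of the other deleted libraries in 36 of 48, by a median of 0.08 (0.02 over all genes). Genes with shorter annotated exons were shifted more in both libraries: across the 48 genes, which share their libraries, Spearman's rho with exon length was −0.40 in control 3 and −0.44 in Skiv2l-deleted 2. The sum of the 49 proteasome genes was 3408, 3568 and 4413 FPKM in controls and 3773, 4088 and 3891 in deleted libraries, or 0.684% to 0.800% of all FPKM, and the groups overlapped through control 3. Without control 3, 4 members were called higher (Psmb8, Psme1, Psmg1 and Psmg4) and Psme4 lower, among 13.1% of all genes called. Without control 3 and Skiv2l-deleted 2, Psmb8, Psme1 and Psmg4 were called higher and Psme4 lower, among 13.0% of all genes. Whether the myeloid RNA or the exon length has a part in the shift was not tested.

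**Figure D4:**
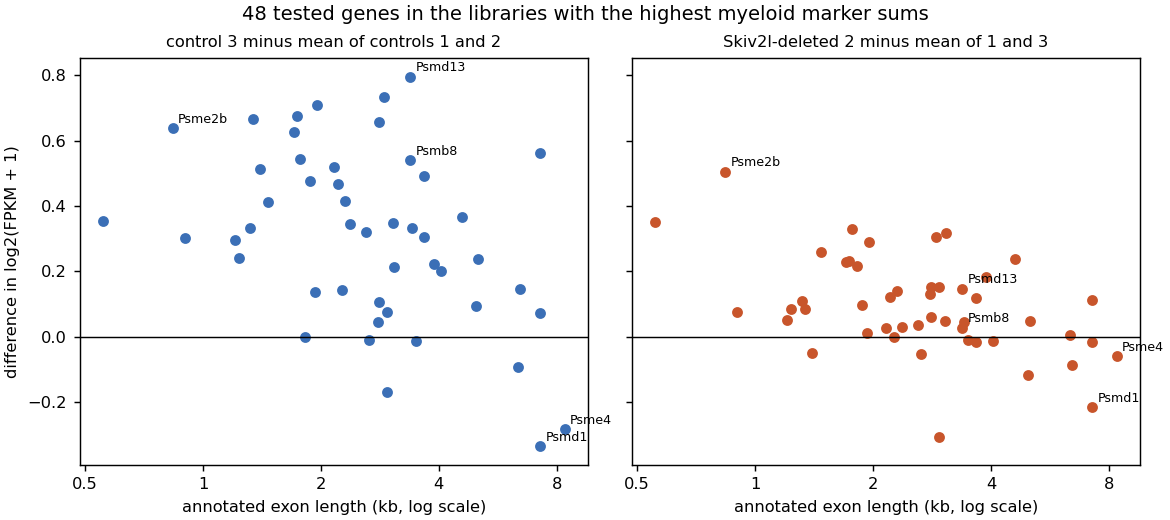
Difference in log2(FPKM + 1) of control 3 from controls 1 and 2 (left) and of Skiv2l-deleted 2 from the other deleted libraries (right) against annotated exon length (x axis, kb, log scale) in the 48 tested genes. In control 3, 41 points lie above 0, from −0.34 for Psmd1 to 0.80 for Psmd13, and in Skiv2l-deleted 2, 36 do.

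Genes that work with the proteasome but carry other symbols were counted in lists. Of 8 proteasome components and partners such as Adrm1, Sem1 and Pomp, 0 were called by limma and 1 had an unadjusted p below 0.05, Usp14, a deubiquitinase of the cap, at 23.8, 22.3 and 28.8 against 36.7, 30.3 and 30.4 FPKM (0.37, limma adjusted p = 0.155). Their median log2 fold change was −0.08. Of 6 ubiquitin and E1 enzyme genes 0 were called by limma, with 1 at an unadjusted p below 0.05 and a median of 0.20. Of 9 shuttle and extraction factors 0 were called, with 0 at an unadjusted p below 0.05 and a median of 0.06. Over all genes tested, an unadjusted limma p below 0.05 was found in 3463 of 13539.

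The route that raises subunit genes on proteasome shortage had 2 of 7 tested members higher and 0 lower. Among all genes tested 4.97% were higher and 3.87% lower. Nfe2l1, the NRF1 factor itself, rose from 16.4, 17.1 and 15.2 FPKM to 25.2, 21.1 and 23.8 (0.50 ± 0.12, limma adjusted p = 0.0435). Ngly1, the enzyme that strips sugars from NRF1, rose from 16.0, 13.8 and 15.3 to 20.6, 22.2 and 24.7 FPKM (0.55 ± 0.12, limma adjusted p = 0.0360). The groups did not overlap in either gene. Leaving out any single library took away the Nfe2l1 call, and 5 of the 6 omissions took away the Ngly1 call, all but that of control 3, with adjusted p up to 0.189 and 0.170. Without control 3 and Skiv2l-deleted 2, Nfe2l1 passed (0.53, limma adjusted p = 0.0321) and Ngly1 did not (0.57, 0.0572). Ddi2, the protease that cuts NRF1, was at 0.17 and Nfe2l2 at 0.08, neither called.

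Among interferon-stimulated genes several rose. The difference between this list and the immunoproteasome genes was not tested. Of 14 tested, 6 were higher and 0 lower, where 4.97% of all genes tested were higher and 3.87% lower. The median log2 fold change was 0.98. The 6 were Ifi44 (1.72), Gbp2 (1.33), Oasl2 (1.19), Oas1a (1.08), Usp18 (1.08) and Rtp4 (0.97). Gbp2, a guanylate-binding protein, stood at 5.80, 4.67 and 6.05 FPKM in controls and 14.4, 14.3 and 17.4 in deleted libraries, and its call held in 6 of 6 omissions (limma adjusted p = 0.00618, up to 0.0378). The other 5 all lost theirs without Skiv2l-deleted 3 (limma adjusted p = 0.0960 to 0.144). Without Skiv2l-deleted 1, Ifi44, Oas1a, Rtp4 and Usp18 lost theirs, and without Skiv2l-deleted 2, Oas1a, Oasl2, Rtp4 and Usp18 did. Without control 1, Ifi44, Oasl2, Rtp4 and Usp18 did, and without control 2, Oasl2 and Rtp4. Without control 3 and Skiv2l-deleted 2, Rtp4 (0.99, limma adjusted p = 0.0729) and Usp18 (1.15, 0.0620) lost theirs. Of 11 interferon receptors and factors 0 were called by limma, and the median was 0.32. An unadjusted limma p below 0.05 was found in 5 of the 11, and in 3463 of all 13539 genes tested. Irf1, which acts on the immunoproteasome genes, stood at 41.5, 40.9 and 53.0 against 49.9, 61.0 and 70.4 (0.41, limma adjusted p = 0.176).

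Genes of MHC class I peptide loading, which use the peptides the proteasome makes, had 2 of 10 members higher and 0 lower. Their median was 0.48, and of all genes tested 4.97% were higher and 3.87% lower. Erap1, the peptide-trimming protease, rose from 18.1, 18.1 and 14.5 FPKM to 29.2, 22.5 and 27.1 (0.61, limma adjusted p = 0.0475), and the chaperone Canx rose by 0.48 (limma adjusted p = 0.0369). The Erap1 call was lost in each of the 6 omissions and that of Canx in all but that of control 3. Without control 3 and Skiv2l-deleted 2, Erap1 passed (limma adjusted p = 0.0229) and Canx did not (0.0586). The adjusted p reached 0.190 for Erap1 and 0.171 for Canx, each without Skiv2l-deleted 1. Tap1 and Tap2 were at 0.04 and 0.26, neither called. H2-K1 and B2m were at 0.59 and 0.55, also uncalled (limma adjusted p = 0.134 and 0.0681), with groups that did not overlap.

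Around Psmb9 and Psmb8, within 100 kb on each side, 13 of 17 other genes were tested, and 1 was higher and 2 lower. The shares over all genes tested were 4.97% higher and 3.87% lower. H2-Oa, a subunit of an MHC class II chaperone, rose from 9.92, 5.97 and 10.6 FPKM to 18.1, 19.5 and 21.3 (1.10, limma adjusted p = 0.0234). Its call was lost without control 1 and without each of the 3 deleted libraries, with an adjusted p of up to 0.107. It held without control 3 and Skiv2l-deleted 2 (limma adjusted p = 0.0332). H2-Ab1 and H2-Aa, the chains of the classical class II molecule, fell by 1.19 and 2.23 on the log2 scale (limma adjusted p = 0.00644 and 0.00429), and both calls held in 6 of 6 omissions. Both stand in the mature B marker list, whose sum was lower in every deleted library, and the part of such cells was not tested. Skiv2l begins 638 kb beyond the end of Psmb8.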

How the data were processed

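For each mouse the authors deposited 1 table of genes with FPKM, TPM and coverage (mean read depth of a gene), per the file headers. Libraries were strand specific, per the labels' protocols. Per the submitters' processing notes, GRCm38 was used. Aligner, quantifier and use of strand were not given in the sources used here. Deposited FPKM summed to 498125 to 551712 per library. Between 7 and 9 gene identifiers stood on several lines, and values were summed per identifier.

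The members and lists were chosen with earlier results of these data known. Groups came from the genotype labels. Limma 3.58.1 in R 4.3.3 (lmFit, eBayes with trend) was fitted to log2(FPKM + 1), which understates changes of low genes. Single ratios were compared by exact permutation (scipy 1.17.1). The fit was checked on simulated data. Coordinates were identical in GENCODE M21 for 47 of 50 members; 24 overlap another gene, 19 of them one on the opposite strand. The labels say that the mice were separate and nothing more on litters or sort days. Named genes were the catalytic genes, Psme1, Psme2, those called and the member of each role farthest from 0. Outside that rule and after their values were seen, Psmb4, Psmc4, Psmd4, Psmd8, Psme3, Psme2b, Psmg1, Psmg3, Igha, Mzb1, Ddi2, Nfe2l2, Irf1, Tap1 and Tap2 were named. So were the markers Mpo, S100a9, Ngp, C1qa, Cd3e, Hba-a1 and Siglech, and the class I genes H2-K1 and B2m. Alternatives were other pseudocounts, filters, units, scalings, weights, a covariate, a replicate block and omissions; deposited coverage in place of FPKM was chosen after the files were seen.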

Additional observations from a re-analysis of the deposited data

How the results depend on the processing

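Psme4 kept its fall in all 19 alternatives (log2 −1.0 to −0.82) and its call in 17; without Skiv2l-deleted 1 or 3 it was −0.92 and −0.91 (limma adjusted p = 0.0531 and 0.0549; omissions ranged from −1.0 to −0.84). Among all genes, those called, 1197 in the fit reported, were 512 with no filter, 3449 with array weights, 2620 with a term separating control 3 and Skiv2l-deleted 2 (the covariate), and 179 (without Skiv2l-deleted 3) to 1749 (without control 3) in the omissions. Members called, 1 of 48 in the fit reported, were 8 with array weights, 5 with the covariate, 4 without both libraries, 2 with coverage (Psmg4 added) and 0 to 5 in the omissions, with 0 without Skiv2l-deleted 1 or 3. Neighbours of Psmb8 and Psmb9 called, 3 of 13 in the fit reported, were 5 with array weights and 5 with the covariate. These settings called 3449 and 2620 of all 13539 genes. List counts ranged from 0 to 2 for the NRF1 route and 0 to 4 for MHC class I loading (2 each in the fit reported). Both counts were 0 with no filter, with TPM, with scaling without antigen receptor segments and with the replicate block. Interferon-stimulated genes called, 6 of 14 in the fit reported, were 1 with no filter, 2 with the replicate block, 10 with the covariate and 13 with array weights. Over all genes these settings called 512 of 28354, 365 of 13539, 2620 of 13539 and 3449 of 13539. In the omissions they ran from 1 (without Skiv2l-deleted 3) to 8 (without control 3) interferon-stimulated genes. Interferon receptors and factors ran from 0 to 5, with the 5 under array weights. With a replicate block 365 genes were called and Psme4 kept its call (limma adjusted p = 0.0478). Deviations of same-numbered libraries from their group means correlated at 0.0939, −0.429 and −0.355. With 3 libraries a group these values cannot settle whether the numbers mark a pairing, which the labels do not give. Without both libraries the sign turned in 7 of the 48 members. Among members whose every alternative was followed, signs turned, never with a call, in 5: with array weights Psmb7 was 0.0812 and Psmd13 0.0491; without both libraries Psmb7 was 0.062, Psmb9 0.0683 and Psmd13 0.0797, and the other 4 of the 7 were Psmb4 (0.125), Psmd4 (0.0631), Psmd8 (0.0752) and Psmg3 (0.0661). In the omissions of 1 library the ranges crossed 0: Psmb3 −0.0033 to 0.207 (−0.00082 without control 1), Psmb6 −0.0043 to 0.244, Psmb7 −0.107 to 0.0773 (0.00051 without Skiv2l-deleted 1), Psmb9 −0.257 to 0.0629 and Psmd13 −0.288 to 0.129. Where no omission is named, the cause was not tested. Medians of all genes moved by less than 0.1 in each scaling. The tables hold no read counts, so counting of reads sets no limit that can be given, and 3 libraries a group limit the precision.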

Other observations

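The FPKM of Psme1 over that of Psme2 was 1.12, 1.24 and 1.12 in controls and 1.38, 1.14 and 1.26 in deleted libraries, and the groups overlapped. Within the controls the sum of the 20S alpha ring genes was 632, 711 and 791 FPKM and that of the 19S ATPases 529, 575 and 691. In the deleted libraries these sums were 737, 830 and 761 for the alpha ring and 536, 542 and 539 for the ATPases. The ATPase sum of every deleted library therefore lay inside the control range, and so did all but 1 of the alpha ring sums. These sums were chosen after their values were seen and are given with no test.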
